A study of Homo sapiens with 13 samples.

Results

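The genes described here are the zinc finger genes that carry a ZNF symbol and lie outside chromosome 19, followed through the decay of labelled RNA in K562, a long-established human line from chronic myeloid leukaemia with erythroid character. A gene was taken when its symbol was ZNF plus a number and an optional letter, when it was annotated as protein-coding on any chromosome but 19, and when its total counts averaged 5 or more CPM, that is, scaled to the size of each library, over the 12 chase libraries. Of 262 such genes at any level, 142 reached 5 CPM, out of 59204 gene IDs in the tables, and 13 of the others had no count in any chase library. The members were thus chosen by their mean total CPM, so their levels are given only as a description. The genes just above the limit were ZNF717 with 5.11, ZNF10 with 5.15 and ZNF521 with 5.30 CPM, and those just below it were ZNF354B with 4.95, ZNF514 with 4.86 and ZNF81 with 4.801 CPM. Chromosome 7 holds 22 of the members, chromosome 16 holds 20, chromosome 1 holds 12 and chromosome 10 holds 10, and no other chromosome holds more than 9.

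All 13 libraries came from the same unmodified line grown in the same serum-containing medium. In 12 of them the cells had taken up 4-thiouridine (4sU), a uridine analogue, at 30 µM for 12 h with fresh medium every 3 h. A wash and 0, 1, 2, 4, 8 or 12 h in 3 mM uridine followed, with 2 libraries at each time. The remaining library, called no 4sU here, came from cells that were given no 4sU and has no replicate. Alkylation of the RNA makes reverse transcription read 4sU as C (SLAM-seq), and libraries were made from RNA 3′ ends, and the authors counted all reads and the reads they call nascent for each gene, named total and labelled counts here. Whether the 2 libraries of a time came from separate cultures is not in the labels. The p-values therefore cover the spread between these libraries alone, and it may be technical.

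C2H2 zinc finger proteins bind DNA, and some of them RNA, through short loops that hold a zinc ion between 2 cysteines and 2 histidines, and they are the most numerous family of human transcription factors. Many carry a KRAB domain at the start of the protein, which recruits the co-repressor TRIM28 and with it histone methylation, often at transposable elements, and others carry a SCAN domain, through which they pair with each other. Neighbouring fingers are commonly joined by a short conserved linker named TGEKP after its amino acids. Transcripts of regulatory proteins are as a class known to be short-lived in mammalian cells.

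The linker marks the coding sequences of most of these genes. It was not itself a criterion, but the ZNF symbol names zinc finger genes. Its frequency among the members was thus largely set by the rule and is given as a description. At least 1 linker was found in the longest annotated coding sequence of 70.4% of the 142 members, against 3.25% of the 8373 coding genes tested for decay that have an annotated transcript, the members among them. One finger with the linker that follows it is shown for 5 members, to let the family unit be read directly; ZNF398, ZNF35, ZNF268 and ZNF24 had labelled RNA that fell faster than the median gene, and ZNF76 is shown because it had the same unit and fell slower. The letters are coding DNA from the first cysteine codon of the first complete unit in 1 exon, read on the gene's strand from GENCODE 29 transcripts, with positions on GRCh38, and capitals mark the 15 bases that encode the linker.
ZNF398 (chr7:149179325-149179402, + strand): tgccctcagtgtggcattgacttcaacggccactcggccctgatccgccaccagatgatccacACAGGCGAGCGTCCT
ZNF35 (chr3:44659033-44659110, + strand): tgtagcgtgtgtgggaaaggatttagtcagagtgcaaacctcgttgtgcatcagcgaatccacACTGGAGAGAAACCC
ZNF268 (chr12:133202854-133202931, + strand): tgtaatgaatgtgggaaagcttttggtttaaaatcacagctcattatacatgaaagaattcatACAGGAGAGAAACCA
ZNF24 (chr18:35337505-35337582, − strand): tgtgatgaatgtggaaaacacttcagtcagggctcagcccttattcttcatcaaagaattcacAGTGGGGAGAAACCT
ZNF76 (chr6:35291575-35291658, + strand): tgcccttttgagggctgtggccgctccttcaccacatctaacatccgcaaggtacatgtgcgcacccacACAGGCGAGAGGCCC
The linker of ZNF76 shared 12 of 15 bases with that of ZNF398 11 of 15 with those of ZNF35 and ZNF268 and 9 of 15 with that of ZNF24, so the slowly lost transcript carried the linker too.

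Libraries held between 9004529 and 17425584 total counts. Labelled counts were 10.9 and 10.6% of them after 12 h, against 35.9 and 36.1% at 0 h, and 0.00633% in no 4sU. In the members, 5 of 63325 counts were labelled in no 4sU. The composition of the Drosophila spike-in separated the 0, 1 and 2 h libraries and replicate 1 of 4 h from replicate 2 of 4 h, the 8 and 12 h libraries and no 4sU, so that this technical split runs almost with chase time. All 13 erythroid and K562 genes listed as markers reached 1 CPM, and their summed level ranged from 13070 to 14210 CPM in the 0 h libraries and from 10370 to 10890 CPM in the 12 h libraries and was 4682 CPM in no 4sU. Of 5 lymphocyte markers 2 reached 1 CPM, and their sum was 4.89 to 5.07 CPM in the 0 h libraries, 10.1 to 10.8 CPM in the 12 h libraries and 42.8 CPM in no 4sU, of which PTPRC made up 35.8 CPM, while CD3E and MS4A1 stayed at or below 0.222 CPM in every library. No 4sU thus differed from the labelled libraries in marker genes as well, and its comparisons below rest on 1 library.

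Labelled RNA of these genes was lost fast. Their labelled share of counts had a median of 64.1% at 0 h and of 58.3, 43.1, 21.4, 6.02 and 1.84% after 1, 2, 4, 8 and 12 h of chase. Over all 9652 genes tested the median share was lower at 0 h, with 57.9%, and higher from 2 h on, with 44.8, 29.03, 13.1 and 5.86% after 2, 4, 8 and 12 h. For ZNF genes on chromosome 19 the medians were 61.96% at 0 h, then 19.4% after 4 h and 1.75% after 12 h. By these medians, the members started the chase with more of their RNA labelled than the median gene and ended it with less.

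**Figure D1:**
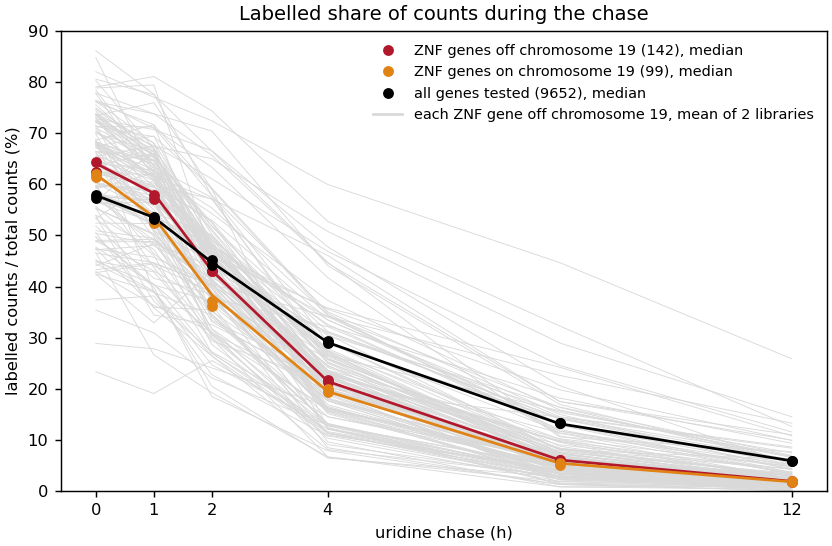
Labelled counts as a percentage of total counts against hours of uridine chase, with 1 point per library for the median of each gene group and 1 grey line per ZNF gene off chromosome 19. The red points of the 142 members start at 62.5 and 64.5% at 0 h, above the black points of all genes tested, and lie below them from 2 h on.

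Loss was tested gene by gene. For each gene a log2 slope of labelled counts per hour, scaled to the size of the total library, was compared with the median slope of all genes with edgeR's quasi-likelihood test, at a Benjamini-Hochberg adjusted p under 0.05. Labelled RNA fell faster than the median in 114 of the 142 members and slower in 4, and 24 did not pass in either direction, where 36.0% of all genes tested passed as faster and 36.3% as slower. Each of the 118 members that passed was on its side of the median slope when either replicate series was fitted alone. The same held for 6972 of the 6980 genes that passed among all genes tested. Each series is a part of the libraries behind the call, so this is no independent check. Within the 7 chase libraries on the early side of the spike-in split 69 members passed as faster and 0 as slower, and within the 5 on the late side 62 and 2 did, with fewer libraries in each test. Among ZNF genes on chromosome 19, 84 of 99 were faster and 4 slower.

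Apparent half-lives, from a single exponential plus the labelled share seen in no 4sU, had a median of 2.51 h over the 142 members, with quartiles of 2.05 and 3.14 h. The medians were 2.30 h for chromosome 19 and 4.30 h for all genes tested, whose quartiles were 3.03 and 6.58 h. A half-life under 2 h was found for 27 members and one over 4 h for 15, and the range ran from 1.37 h for ZNF668 to 6.42 h for ZNF276. No member was so stable that only a lower limit could be read. Labelled counts behind a member's fit ranged from 154 for ZNF521 to 25790 for ZNF207 over the 12 libraries, with a median of 832.5, so the intervals of the rarer transcripts are wide.

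**Figure D2:**
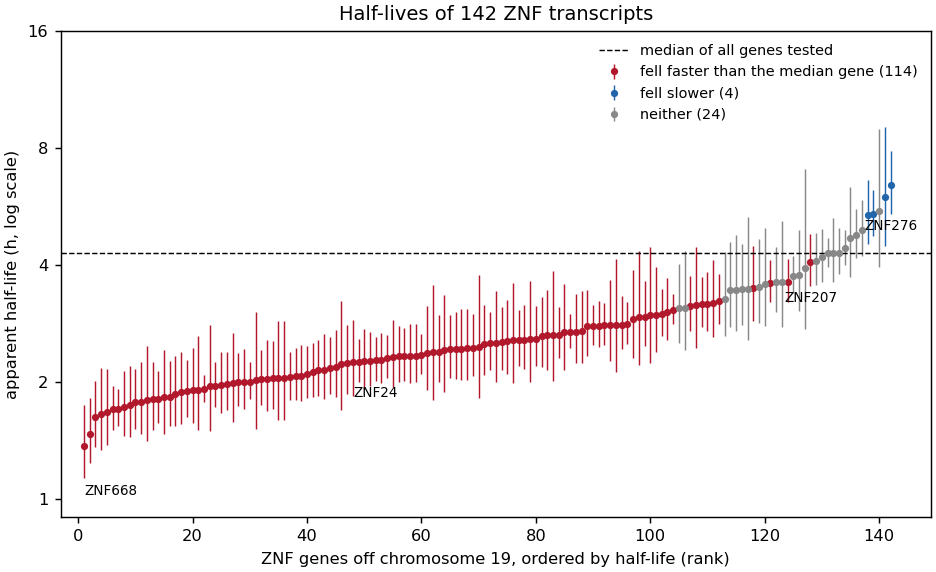
Apparent half-life in hours on a log scale for the 142 members in rank order, with 95% intervals as bars and colour for the outcome of the test against the median slope. ZNF668 stands at the short end with 1.37 h and ZNF276 at the long end with 6.42 h, and most points lie under the dashed median of all genes tested at 4.30 h.

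The shortest half-life belonged to ZNF668 (ENSG00000167394), which spans chr16:31060843-31074320 and encodes 16 fingers and 5 linkers in its longest annotated form. Its labelled shares were 45.1 and 54.2% at 0 h and had become 45.5 and 34.2% after 1 h, 17.8 and 19.1% after 2 h, 8.76 and 6.90% after 4 h and 1.52 and 0.905% after 8 h. No labelled count was left in either 12 h library. Those zeros were 0 of 197 and 0 of 209 counts, which allow shares of up to 1.52 and 1.44% (3 counts, counting error only). The share had thus fallen below every 0 h value by 2 h. Its half-life was 1.37 h (95% interval 1.13 to 1.74 h) and its slope was −0.49 log2 per h from the median (adjusted p = 1.46e-09). In the annotation, the last 500 bases of ZNF668 overlap AC135050.1 on the other strand.

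ZNF398, a KRAB protein, held 60 and 56.2% labelled counts at 0 h, then 27.0 and 34.1% after 2 h and 0.840 and 1.40% after 12 h, with a half-life of 1.47 h (1.24 to 1.82 h). ZNF35, without KRAB or SCAN, held 58.3 and 57.7% at 0 h, then 57.2 and 56.6% after 1 h, 13.9 and 16.8% after 4 h and 0.5 and 2.59% after 12 h. Its shares after 1 h were close to those at 0 h and were far lower after 4 h, and its fitted half-life was 1.62 h (1.36 to 2.01 h). The other members with the most negative slopes were ZNF394 with 1.68 h, ZNF785 with 1.66 h, ZNF513 with 1.74 h, ZNF202 with 1.78 h and ZNF622 with 1.83 h. ZNF394 and ZNF202 carry both KRAB and SCAN, ZNF785 carries KRAB, and ZNF622 is a cytoplasmic factor in the maturation of the large ribosomal subunit rather than a transcription factor. In 7 members, ZNF668, ZNF513, ZNF785, ZNF16, ZNF142, ZNF184 and ZNF839, no labelled count was left in either library at 12 h.

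Loss slower than the median gene was found in ZNF276, ZNF76, ZNF706 and ZNF598. ZNF276 (ENSG00000158805, chr16:89720400-89740903) held 45.2 and 49.2% labelled counts at 0 h, then 30.8 and 31.4% after 4 h, 15.7 and 14.96% after 8 h and 6.76 and 8.03% after 12 h. Its half-life was 6.42 h (5.42 to 7.87 h; adjusted p = 0.000111), and its last 500 bases overlap FANCA on the other strand, so that without a stated use of strand its reads cannot be told apart from those of FANCA. ZNF598, the ubiquitin ligase that marks collided ribosomes, held 60.3 and 64.4% at 0 h, then 37.7 and 36.9% after 4 h and 6.84 and 6.14% after 12 h, with a half-life of 5.39 h (4.54 to 6.62 h; adjusted p = 0.0187). ZNF706, a very short protein with 1 finger, had a half-life of 5.40 h (4.76 to 6.25 h; adjusted p = 0.000335).

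ZNF76 and ZNF143 are close relatives, and ZNF143 is a transcription activator that binds many promoters and is found at chromatin loops. ZNF76 held 65.8 and 70.7% labelled counts at 0 h, then 44.4 and 47.7% after 4 h and 8.51 and 11.3% after 12 h. ZNF143 held 74.2 and 78.8% at 0 h, then 40.8 and 42.7% after 4 h and 8.14 and 7.14% after 12 h. The half-lives were 6.001 h (4.48 to 9.07 h) for ZNF76 and 2.44 h (2.02 to 3.08 h) for ZNF143, and their intervals did not overlap. ZNF76 was slower than the median gene (adjusted p = 0.0262) and ZNF143 faster (adjusted p = 1.03e-06), and the difference between them was not tested. By labelled share, neither gene passed in either direction, and within the early side of the spike-in split the slope of ZNF76 lay on the faster side of the median.

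The most abundant members lay on both sides of the family's median half-life. Counts of 3′ ends do not grow with transcript length, so levels are compared here as CPM. ZNF207 (BuGZ), which binds microtubules and the checkpoint protein BUB3, had the highest mean level with 353 CPM, and ZNF24, a SCAN protein, followed with 329 CPM. ZNF207 held 72.3 and 72.9% labelled counts at 0 h, then 46.4 and 47.4% after 4 h and 11.95 and 11.1% after 12 h, and passed as faster by a small margin (half-life 4.09 h, 3.54 to 4.82 h; adjusted p = 0.0463). ZNF24 held 63.8 and 64.8% at 0 h, then 21.3 and 20.95% after 4 h and 1.33 and 1.47% after 12 h, with a half-life of 2.27 h (2.02 to 2.61 h; adjusted p = 3.58e-13). The gap between the shares of ZNF207 and ZNF24 was wider at 4 h than at 0 h.

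ZNF770 averaged 160 CPM with a half-life of 2.79 h, ZNF593 averaged 138.5 CPM with 2.255 h, and ZNF451 averaged 125 CPM with 3.07 h. ZNF593 has a yeast counterpart, Bud20, that acts in export of the large ribosomal subunit, and ZNF451 is a SUMO ligase. ZNF37A with 110 CPM, ZNF3 with 107 CPM and ZNF131 with 106.5 CPM had half-lives of 3.18, 2.07 and 2.31 h. All 6 fell faster than the median gene.

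A list of 25 genes with a known role was taken from textbook knowledge, and 23 of them were members. Among the DNA-binding factors, ZNF281 and ZNF148, relatives that bind GC-rich promoters, had half-lives of 1.71 h (1.54 to 1.91 h) and 2.03 h (1.75 to 2.42 h). ZNF281 held 66.1 and 70.6% labelled counts at 0 h, then 17.9 and 17.99% after 4 h and 1.43 and 1.12% after 12 h (adjusted p = 9.10e-14). ZNF217, an oncogene of breast cancer that works with the CoREST co-repressor, had a half-life of 1.89 h, and ZNF384, a fusion partner in acute leukaemia, one of 2.37 h. ZNF263, with KRAB and SCAN, had 2.09 h. ZNF410, which activates the gene of the remodeller CHD4 and through it keeps fetal globin genes low in erythroid cells, had a longer half-life of 3.50 h (2.87 to 4.48 h; adjusted p = 0.0105), but 67.8% of the 50-base words in its last 500 bases also occur in transcripts of another annotated gene.

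ZNF644, a partner of the histone methyltransferases G9a and GLP, had a half-life of 1.957 h (1.73 to 2.26 h). ZNF687 and ZNF592, which form a complex with ZMYND8, had half-lives of 2.43 h (2.05 to 2.98 h) and 3.15 h (2.71 to 3.75 h). ZNF746 (PARIS), a KRAB repressor of the PGC-1α gene and a substrate of parkin, had 2.08 h, and ZNF445, which guards imprinted regions, 2.69 h. ZNF10, the protein from which the KRAB repressor domain of many laboratory tools was taken, had 3.10 h (2.52 to 4.03 h) and did not pass (adjusted p = 0.0513). ZNF609, a large protein with 1 finger known as a partner of the cohesin loader in mouse neural progenitors, had 3.45 h and did not pass (adjusted p = 0.0507).

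Of all 23 members on the list, 19 fell faster than the median gene, 1 slower and 3 passed in neither direction. Among the others, ZNF622 had a half-life of 1.83 h and ZNF593 of 2.255 h, ZNF638, which silences unintegrated retroviral DNA, of 3.60 h (3.21 to 4.11 h), ZNF346, which binds double-stranded RNA, of 3.63 h (3.22 to 4.15 h) and ZNF326, of the DBIRD complex that links splicing to elongation, of 4.42 h (4.01 to 4.93 h). ZNF326 did not pass in either direction (adjusted p = 0.644). With ZNF598 at 5.39 h, these 6 ranged from among the 27 shortest to among the 15 longest half-lives of the family.

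Half-lives were set against what the coding sequences hold. The 100 members with at least 1 linker had a median half-life of 2.40 h, with 89 faster and 1 slower than the median gene, and the 42 without one had a median of 3.19 h, with 25 faster and 3 slower. By number of fingers the median was 3.49 h for the 14 members with 0 to 2, 2.42 h for the 34 with 3 to 5, 2.35 h for the 26 with 6 to 8, 2.56 h for the 35 with 9 to 12 and 2.40 h for the 33 with 13 or more. Of the 14 members with few fingers 7 were faster and 2, ZNF598 and ZNF706, slower, and they ran from ZNF830 with 2.005 h to ZNF706 with 5.40 h. Across the 142 genes, Spearman's rho of half-life was −0.19 with the number of fingers and −0.22 with the number of linkers, as a description over genes that share their libraries.

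**Figure D3:**
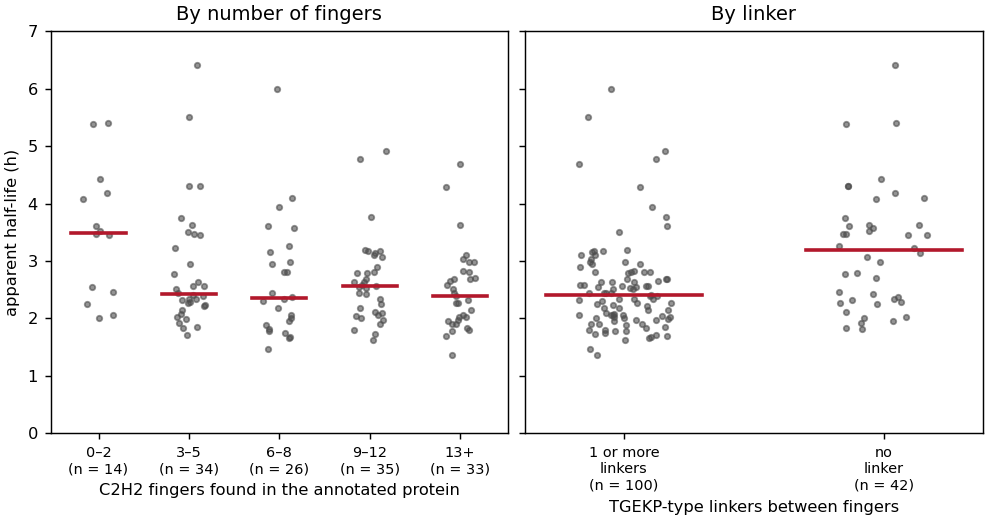
Apparent half-life in hours of each member by the number of C2H2 fingers found in its longest annotated protein (left) and by the presence of a TGEKP-type linker (right), with red bars for medians. The groups overlap widely, and the median is highest, at 3.49 h, for the 14 members with 0 to 2 fingers.

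By effector domain, the medians lay close together. KRAB was found in 55 members, whose median half-life was 2.54 h with 48 faster and 0 slower, and the 87 without KRAB had 2.43 h with 66 faster and 4 slower. The 13 members with SCAN, 8 of which also had KRAB, had a median of 2.22 h and all passed as faster. No test was made between these classes.

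AUUUA, the pentamer at the heart of AU-rich elements that recruit decay factors, was searched in annotated 3′ UTRs on the transcript strand. It occurred in 73.6% of the 140 members with a 3′ UTR and in 68.3% of the 8283 tested coding genes with one. The 37 of these members without it had a median half-life of 2.51 h, the 40 with 1 or 2 sites 2.45 h and the 63 with 3 or more 2.56 h, so that half-life did not order with the count (rho 0.02, n = 140). Sites per 3′ UTR were counted without overlap, whereas the stretches below mark overlapping sites too. The densest stretches of 29 bases are shown for 4 members of known role or high level, as DNA with the pentamers in capitals, to let the motif be read in its context. All 4 fell faster than the median gene.
ZNF281 (chr1:200406884-200406912, − strand): tgccctttcaatgcaacttttcatATTTA
ZNF644 (chr1:90916383-90916411, − strand): agatattatattttgtttgtatgtATTTA
ZNF148 (chr3:125230631-125230659, − strand): tccATTTAaattattttttcttttATTTA
ZNF24 (chr18:35335199-35335227, − strand): taagataaatgatgtgATTTATTTATTTA
ZNF24, with 3 overlapping pentamers in this stretch and 17 counted without overlap in its whole 3′ UTR, had a half-life of 2.27 h. ZNF281, with 7 in all and no more than 1 in any 29 bases, had 1.71 h.

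Several members stand in clusters of neighbouring genes. Among all 142 members 80.3% fell faster than the median gene, so counts near that share are no trait of a cluster. On chromosome 16, chr16:30378106-31084196 holds ZNF48, ZNF771, ZNF768, ZNF785, ZNF689, ZNF629, ZNF668 and ZNF646. All 8 fell faster, with a median half-life of 1.95 h. On chromosome 7, chr7:149126416-149773479 holds 7 members from ZNF398 to ZNF467 with half-lives of 1.47 to 5.50 h, 6 of them faster, and chr7:64307459-65401135 holds 6, of which 5 were faster. The cluster at the end of chromosome 12, chr12:132986365-133214831, holds ZNF26, ZNF84, ZNF10 and ZNF268, with half-lives of 2.69 to 3.10 h and 3 of 4 faster. In chr16:3112560-3409370 5 of 6 members were faster, and in chr7:99472841-100082548 3 of 4.

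At the end of the pulse the labelled share itself varied over the members from 23.3 to 86.2%, with quartiles of 55.3 and 70.9%. The lowest were ZNF205, with 23.9 and 22.7%, and ZNF385A, with 27.4 and 30.3%. The highest were ZNF300, with 88.4 and 83.9%, and ZNF184, with 82.8 and 86.9%. ZNF205 and ZNF385A did not pass in the decay test (half-lives 3.94 and 3.46 h), nor did ZNF300 (3.76 h), while ZNF184 fell faster than the median (1.97 h, 1.67 to 2.39 h). The genes with the lowest shares and ZNF300 with the highest thus had half-lives between 3.46 and 3.94 h.

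The co-repressor machinery that KRAB proteins recruit was listed for comparison. Of 23 genes listed, 22 were tested, with 5 faster, 14 slower and a median half-life of 6.14 h. SETDB1, the histone methyltransferase recruited by TRIM28, had 4.12 h (3.47 to 5.07 h) and did not pass (adjusted p = 0.470). The shortest was SUV39H1 with 1.87 h and the longest HDAC1 with 26.2 h (15.5 to 86.6 h). TRIM28 was counted at a mean of only 0.519 CPM in these tables and was not tested for decay. Its last 500 bases overlap MIR6807 on the same strand in the annotation, and whether this lowered its count was not tested. The 55 KRAB members, with a median of 2.54 h and 48 faster, thus had shorter half-lives than most of the listed partners.

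Total levels of the members changed in both directions over the chase. In bulk RNA, fewer cells that express a gene and less RNA per cell cannot be told apart. At 12 h against 0 h, 54 members were higher (38.0%) and 52 lower (36.6%), where 27.0% of all 16255 genes tested were higher and 29.1% lower (edgeR). Many of those genes are rarer than the members, and among the 9652 tested for decay, which also average 5 CPM or more, 37.1% were higher and 34.8% lower, so the members' shares lay near the background. The median log2 fold change was 0.03 over the members, 0.02 over the 9652 genes and 0.08 over the coding genes among them. With spike-in totals as library sizes 74 were higher and 24 lower, with the median of the 9652 genes at 0.44 in place of 0.02, and the members' median lay 0.02 from it under either scaling. With the spike-in split added as a factor 31 were higher and 40 lower.

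ZNF143 (ENSG00000166478) fell most. It had 7.47 and 8.74 CPM at 12 h, against 22.8 and 22.5 CPM at 0 h, and 23.4 and 19.5 CPM after 4 h. The 12 h libraries were lower than every library of 0 to 4 h (log2 fold change −1.63 ± 0.14 (SE), adjusted p = 1.87e-10). ZNF117, which lies beside the endogenous retrovirus locus ERV3-1, had 8.17 and 7.72 CPM at 12 h, against 20.2 and 19.9 CPM at 0 h (−1.48 ± 0.15, adjusted p = 3.56e-09). ZNF268 had 15.9 and 14.8 CPM at 12 h, against 30.0 and 40.7 CPM at 0 h (−1.35 ± 0.15, adjusted p = 1.57e-08). ZNF485 and ZNF184 were lower by −1.30 each (SE 0.21 and 0.23). That the 0 h and 12 h groups did not overlap was a condition for naming these 5 genes.

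ZNF783, a KRAB gene, rose most, with 15.5 and 17.4 CPM at 12 h, against 3.08 and 3.89 CPM at 0 h (2.09 ± 0.23, adjusted p = 8.77e-09). ZNF521, a factor of blood progenitor cells, had 10.95 and 9.05 CPM at 12 h, against 2.19 and 2.78 CPM at 0 h (log2 fold change 1.86 ± 0.26), but without its 12 h libraries it averaged under 5 CPM, so its level at 12 h made it a member and this difference is given without a test. ZNF512B had 34.7 and 32.5 CPM at 12 h, against 10.6 and 10.7 CPM at 0 h (1.504 ± 0.13, adjusted p = 2.76e-10), with 16.6 and 18.96 CPM after 4 h and 26.9 and 22.5 CPM after 8 h in between. ZNF696 and ZNF32 rose by 1.38 ± 0.14 and 1.26 ± 0.18. That the 12 h libraries lay above both 0 h libraries was again a condition for naming these 5 genes.

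Because totals moved, decay was fitted a second time with the gene's own total counts as offset, which follows the labelled share. By that measure 115 members were faster and 8 slower than the median gene, with 102 faster and 1 slower by both measures. Of all 9652 genes tested, 3698 were faster and 3840 slower by that measure, and 2762 and 3002 by both. Of the 4 slower members only ZNF276 was slower by share as well, while ZNF76, ZNF706 and ZNF598 passed in neither direction. ZNF143 was also no longer called, with 3.48 h by share. The median half-life of the members by share was 2.35 h. For ZNF117 the half-life was 3.18 h (2.78 to 3.72 h) by labelled counts and 5.12 h by labelled share, and for ZNF207 4.09 and 4.755 h, so that both passed as faster by the first measure and as slower by the second. For ZNF521 the values were 3.62 and 2.08 h and for ZNF783 5.50 and 2.86 h. ZNF117 and ZNF207, whose totals were lower at 12 h, thus had longer half-lives by share, and ZNF521 and ZNF783, whose totals were higher, shorter ones.

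After 1 h of chase no change in totals was detected. At 1 h against 0 h, 0 members were higher and 0 lower by edgeR's test, against 0.320% and 0.0369% of all genes tested, and DESeq2 also found 0 in either direction. At an unadjusted p under 0.05 there were 16, and log2 fold changes ran from −0.59 for ZNF10 to 0.74 for ZNF467.

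Against the library without 4sU the members were spread widely. At 0 h against no 4sU, 56 were higher (39.4%) and 42 lower (29.6%), where 33.5% of all genes were higher and 31.8% lower. Of the members that passed, 37 were higher by more than 1 on the log2 scale and 17 lower by more than 1. Such shifts were common, with 1660 higher and 1781 lower among the 9652 genes tested for decay. At 12 h against no 4sU, 52 were higher (36.6%) and 24 lower (16.9%), against 26.2% and 24.9% of all genes. Among the 9652 genes of like minimum level, 35.3% were higher and 39.98% lower at 0 h, and 31.0% and 30.9% at 12 h. The rule used chase libraries alone, and 9 of the 56 and 11 of the 52 higher members had under 5 CPM in no 4sU, so the rule favoured higher calls and the shares are a description. The median log2 fold change was 0.13 over the members and −0.06 over the 9652 genes at 0 h, and 0.15 and 0.01 at 12 h. With spike-in totals as library sizes the split was 78 higher and 19 lower at 0 h, with the median of the 9652 genes at 0.42, and 118 higher and 1 lower at 12 h, with that median at 0.91. The marker sums given above differ between the same libraries, and their part in these results was not tested.

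KRAB members were more often higher than lower at 0 h against no 4sU, which is partly set by the rule and rests on 1 library without 4sU. In that comparison, 30 of the 55 with KRAB were higher and 8 lower, with a median log2 fold change of 0.46. Of the 87 without KRAB 26 were higher and 34 lower, with a median of −0.08. Over all genes tested 33.5% were higher and 31.8% lower, and among the 9652 genes of like minimum level 35.3% and 39.98%. The KRAB genes ZNF10, ZNF268, ZNF184 and ZNF2 were higher and had under 5 CPM in no 4sU, so the rule favoured higher calls in this class. ZNF genes on chromosome 19, 68 of 99 of which were higher and 10 lower, had a median of 0.92. At 12 h against 0 h, 37.1% of the 9652 genes of like minimum level were higher and 34.8% lower. Of the 55 KRAB members 15 were higher and 27 lower (median −0.23), and of the 87 others 39 were higher and 25 lower (median 0.24). These counts describe the classes, which share their libraries, and no test was made between them.

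**Figure D4:**
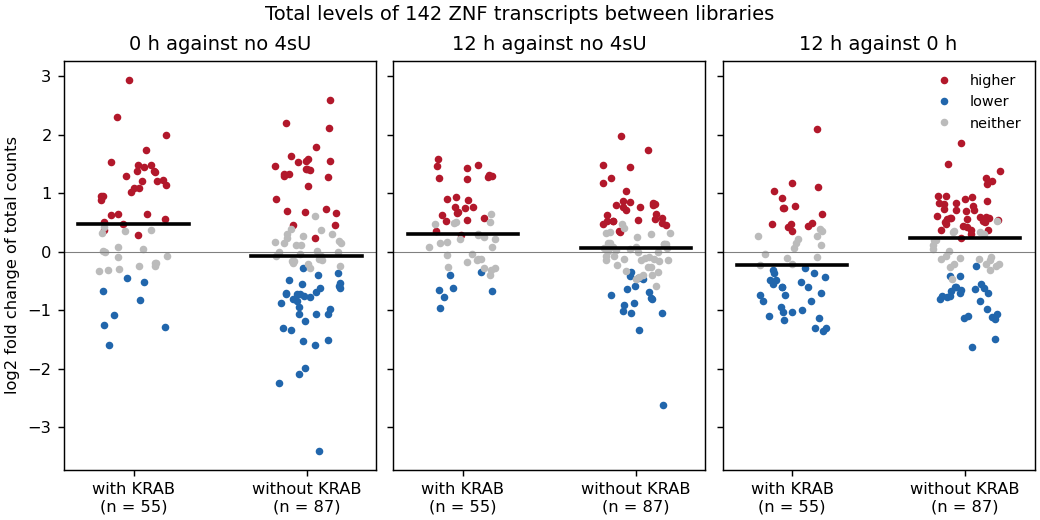
Log2 fold change of total counts of each member in 3 comparisons, split into the 55 members with KRAB and the 87 without, with colour for the outcome of edgeR's test and black bars for medians. At 0 h against no 4sU the medians are 0.46 with KRAB and −0.08 without, and at 12 h against 0 h they are −0.23 and 0.24.

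ZNF268, a KRAB protein with 24 fingers, showed the largest rise, with 30.0 and 40.7 CPM at 0 h, against 4.42 CPM in no 4sU (2.94 ± 0.22). It remained higher at 12 h, with 15.9 and 14.8 CPM (1.59 ± 0.23). Its neighbours on chromosome 12 were also higher at 0 h against no 4sU: ZNF84 by 1.98 ± 0.22, ZNF10 by 1.48 ± 0.31 and ZNF26 by 1.20 ± 0.18. ZNF268, ZNF84 and ZNF10 had under 5 CPM in no 4sU and are members through the chase libraries. Their rises are therefore given without a test, and the direction of this cluster is partly set by the rule. The same holds for ZNF117 and ZNF107 in chr7:64307459-65401135, where 5 of 6 members were higher, among them ZNF273 by 2.30 ± 0.16 and ZNF117 by 2.11 ± 0.20.

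ZNF35 had 34.1 and 36.8 CPM at 0 h, against 5.62 CPM in no 4sU (2.60 ± 0.16, adjusted p = 1.64e-13). ZNF397 had 33.2 and 37.7 CPM at 0 h and 34.5 and 33.4 CPM at 12 h, against 7.46 CPM in no 4sU, and rose by 2.19 ± 0.16 and 1.98 ± 0.16. All 12 chase libraries of ZNF397 lay above no 4sU. At 12 h against no 4sU, ZNF75A was higher by 1.74 ± 0.22, ZNF335 by 1.48 ± 0.16 and ZNF26 by 1.48 ± 0.18. ZNF75A had under 5 CPM in no 4sU and is a member through the chase libraries, so its direction is partly set by the rule.

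ZNF467 showed the largest fall, with 4.87 and 4.66 CPM at 0 h and 7.73 and 10.4 CPM at 12 h, against 48.7 CPM in no 4sU (−3.40 ± 0.20, adjusted p = 4.38e-14 at 0 h, and −2.62 ± 0.18, adjusted p = 2.49e-12 at 12 h). All 12 chase libraries lay between 4.66 and 10.4 CPM. ZNF512B fell by 2.24 ± 0.15 at 0 h, ZNF385A by 2.09 ± 0.16, ZNF395 by 1.99 ± 0.17 and ZNF618 by 1.59 ± 0.15. At 12 h against no 4sU the fall of ZNF217 was 1.33 ± 0.17, that of ZNF618 1.05 ± 0.14, that of ZNF395 1.05 ± 0.15 and that of ZNF629 1.01 ± 0.16. ZNF512B had 34.7 and 32.5 CPM at 12 h, against 48.4 CPM in no 4sU.

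**Figure D5:**
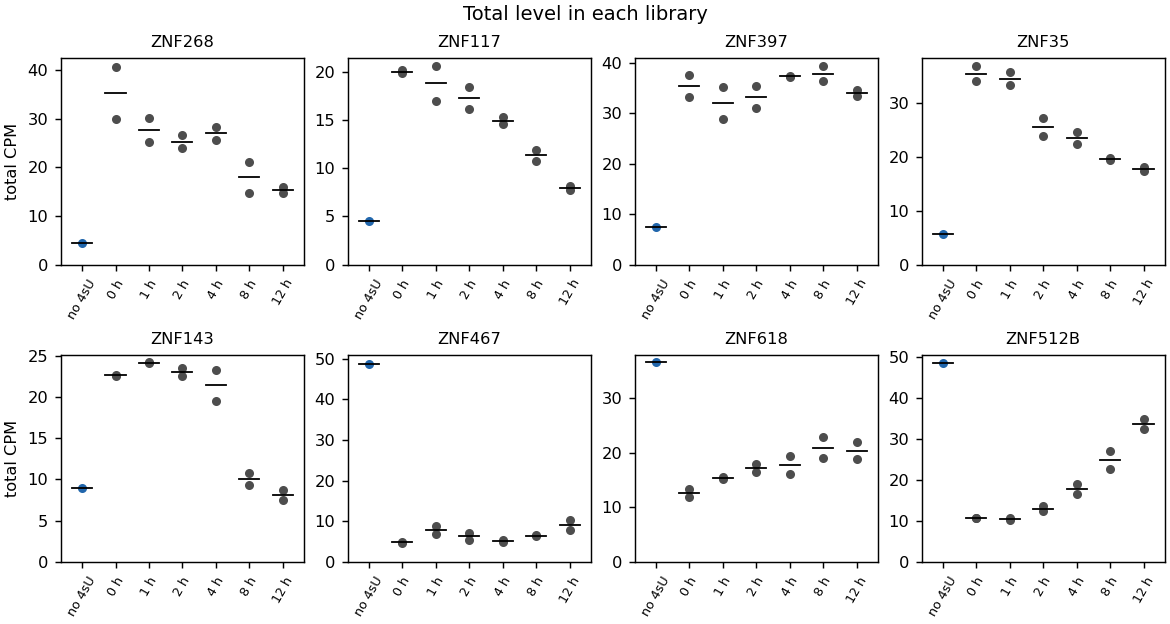
Total CPM of 8 members in each library, with no 4sU at the left (blue) and the chase times in order, 1 point per library and a bar for the mean. ZNF268, ZNF117, ZNF397, ZNF35 and ZNF143 were higher at 0 h than in no 4sU, and ZNF467, ZNF618 and ZNF512B were lower.

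Of the 23 listed members with a known role, 13 were higher and 4 lower at 0 h against no 4sU, and 10 were higher and 2 lower at 12 h. Over all genes tested 33.5% were higher and 31.8% lower at 0 h, and 26.2% and 24.9% at 12 h. Among the 9652 genes of like minimum level the shares were 35.3 and 39.98% at 0 h, and 31.0 and 30.9% at 12 h. ZNF10, among those higher at 0 h, had under 5 CPM in no 4sU, so the rule favoured its higher call. ZNF24 had 305 and 344 CPM at 0 h, against 101 CPM in no 4sU (1.63 ± 0.10), and ZNF207 had 362 and 352 CPM, against 143 CPM (1.27 ± 0.09). ZNF384, ZNF644, ZNF281, ZNF143 and ZNF148 were higher by 1.58 ± 0.17, 1.54 ± 0.14, 1.33 ± 0.12, 1.28 ± 0.17 and 1.12 ± 0.14. ZNF217 was lower by −1.07 ± 0.18 and remained lower at 12 h, and ZNF609 was lower by −0.49 ± 0.14. ZNF598 and ZNF592 were lower, by −0.81 ± 0.09 and −0.71 ± 0.11, and stood at −0.0015 ± 0.0914 and −0.0061 ± 0.103 at 12 h. Of the 23 co-repressor genes, 2 were higher, 20 lower and TRIM28 in neither direction at 0 h against no 4sU. In that comparison 31.8% of all genes tested were lower. Of the 9652 genes averaging 5 CPM or more 39.98% were lower, and of the coding genes among them 43.5%.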

How the data were processed

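K562 cells were labelled, chased and sequenced from RNA 3′ ends with QuantSeq, with a 5% Drosophila S2 spike-in, per the labels' protocols. The authors deposited raw counts of all reads and of nascent reads per human gene and of reads per Drosophila gene. Trim Galore 0.6.5, bcl2fastq 2.17.1.14 and bedtools, with the builds hg38 and dm6, are listed per the submitters' processing notes. Not given in the sources used here are aligner, counter, annotation, strand use and the conversions required of a nascent read. The last 500 bases of 27 members overlap an exon of another gene in GENCODE 29, on the same strand in 6 and on the other strand in 22, and ZNF23, ZNF410 and ZNF322 share over 40% of their 50-base words there with other genes, so their counts are uncertain. Symbols of all members came from the gene-name table.

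The members and lists were chosen with earlier results of these data known. Named genes were the 8 highest levels, the 8 steepest and 8 shallowest slopes past the threshold and on 1 side in both series, 2 extreme labelled shares each way, per contrast the 5 largest rises and falls past the threshold without overlap, genes next to the 5 CPM limit, and 25 listed genes of known role, 23 of them members. ZNF84, ZNF16, ZNF142, ZNF839, ZNF830, ZNF23, ZNF322 and the other cluster members were named after their values were seen.

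Tests used edgeR 4.0.16 in R 4.3.3 (quasi-likelihood, two-sided, Benjamini-Hochberg, 0.05). Labelled counts were fitted on chase time over the 12 chase libraries with the TMM size of the totals as offset, for genes with a mean of 5 CPM and 100 labelled counts. Half-lives with 95% intervals are from quasi-Poisson fits. Totals were fitted over 7 groups with filterByExpr and TMM, and no 4sU was assumed to vary like the others. Library totals of 9004529 to 17425584 set the precision, and limits of 3 counts cover counting error only. Fingers, linkers and 3′ UTRs were read from the longest coding transcript in GENCODE 29. KRAB and SCAN were called by similarity (BLOSUM62) to windows of ZNF10 and ZNF24, where the lowest scores called were 51 and 259 and the highest not called 31 and 11. A finger was C, 2 to 4 residues, C, 12 residues, H, 3 to 6 residues and H or C. The count tests and half-lives were tested on simulated data. Alternatives were DESeq2 1.42.0, other scalings, offsets, filters and time windows, a replicate block, the spike-in side and leaving out libraries. Fits within each spike-in side were chosen after seeing the data. Python 3.11.15, numpy 2.4.6, pandas 2.3.3 and matplotlib 3.10.9 were used.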

Additional observations from a re-analysis of the deposited data

How the results depend on the processing

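The 114 members that fell faster stayed within 1.5 times that count under every other setting run (the lowest counts were 81 with the spike-in split as a factor, 82 with 500 labelled counts and 85 over 0 to 4 h), but were 69 and 62 within the early and the late spike-in side. The 4 slower members were 1 over 0 to 4 h, 2 with 500 labelled counts, 1 with no filter, 8 with own totals, 2 with the split as a factor and 0 and 2 within the sides. The median half-life of 2.51 h was 2.93 h over 0 to 4 h, 2.25 h over 2 to 12 h, 2.44 h with 500 labelled counts, 2.48 h with DESeq2 size factors, 2.35 h with own totals, 2.69 h with the split as a factor, 2.73 h with spike-in totals and 3.09 and 2.26 h within the early and late sides. Leaving out 1 library at a time gave 110 to 116 faster, 3 to 4 slower and medians of 2.41 to 2.56 h. The median labelled share at 0 h was 62.5 to 64.5% with 1 library left out. Totals then gave 45 to 50 higher and 43 to 50 lower at 12 h against 0 h, 53 higher and 37 to 39 lower at 0 h against no 4sU, 44 to 45 higher and 21 to 24 lower at 12 h against no 4sU, and 0 in both directions at 1 h. For totals, the split as a factor gave 31 higher at 12 h against 0 h and 1 higher at 1 h (also 1 with no filter). Spike-in totals gave 24 lower at 12 h against 0 h, 19 lower at 0 h against no 4sU, and 118 higher and 1 lower at 12 h against no 4sU.

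Slopes relative to the median changed sign over 0 to 4 h for ZNF207 (0.0155) and ZNF410 (0.0293), and within the early side for ZNF207 (0.0141) and ZNF76 (−0.0035) and the late side for ZNF75A (0.0724). With own totals they changed sign for ZNF207 (0.046), ZNF277 (0.0021), ZNF598 (−0.0124), ZNF117 (0.0632), ZNF268 (0.0164) and ZNF783 (−0.0832). The cause was not tested. Of all values recomputed for named genes, 1559 kept their direction and side of the threshold, 82 lost the threshold, 30 gained it and 11 changed sign.

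Deviations of libraries with the same replicate number correlated by −0.15 to 0.39 over 15 pairs of times, not all over 0.1, so the numbers were not taken to pair libraries. With a replicate block 113 members were faster and 4 slower, and 54 were higher and 52 lower at 12 h against 0 h. Depth limits the rarer members, and no 4sU has no replicate.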
